A study of Mus musculus with 6 samples.

Results

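Hjurp and 7 genes that act with it at the centromere were followed in the adult mouse cerebral cortex: Cenpa, Mis18a, Oip5, Cenpb, Cenpc1, Cenpn and Cenpt. They are 8 of the 55450 genes in the count tables, and all 8 passed the filter on low counts. Hjurp was taken because its level was high in libraries from mice heterozygous for Setd5, so its values between genotypes are a description with no p-value. The other 7 were taken for what their proteins do, and their differences were tested in a fit across all genes.

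Polyadenylated RNA of the cortex was sequenced in 3 libraries heterozygous for Setd5 and 3 wild type libraries. Setd5 encodes a SET-domain chromatin protein. The labels give genotype and tissue, and the series' design text gives the adult stage. The sources used here do not give the kind of Setd5 allele, the strain, the age in weeks or the sex. Since nothing states that libraries of a genotype came from different animals, p-values reflect only how far these libraries vary, and some of that may be technical. Values of the 3 libraries of a genotype are given in the order of replicates 1 to 3.

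The centromere is marked by CENP-A, a variant of histone H3 that Cenpa encodes. HJURP is the chaperone that carries new CENP-A to the centromere, and the Mis18 complex, which contains the products of Mis18a and Oip5, prepares the site for it. CENP-C and CENP-N bind CENP-A nucleosomes, CENP-T links centromeric DNA to the microtubule-binding kinetochore, and CENP-B binds a short box in satellite DNA. In dividing cells, where this machinery is best known, new CENP-A is loaded after mitosis. Most cells of the adult cortex no longer divide.

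Total counts ran from 82850628 to 92860628 per library. Levels are in CPM (the count scaled to effective library size), and 3 counts, the limit for a gene at 0, come to 0.0326 to 0.0364 CPM, for counting error only. Setd5 transcript was at 69.5, 68.7 and 75.3 CPM across the heterozygous libraries, against 111, 97.0 and 108 CPM across the wild type libraries. The log2 difference was -0.56 (SE 0.07), in the direction of the labels and without overlap. Xist was high in 2 libraries, replicate 3 of each genotype, at 865 CPM in the heterozygous and 784 CPM in the wild type one, against at most 0.876 CPM in the other libraries. Wild type replicate 3, whose title has a form unlike those of the other libraries, also stood apart in its striatal markers, whose summed level was 930 CPM there, against 189 to 400 CPM in heterozygous and 130 and 233 CPM in the other wild type libraries. Markers of cortical excitatory neurons were high in every library, summing to 1330 to 1490 CPM in the heterozygous libraries and to 1290 to 1420 CPM in the wild type ones.

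The promoters of Hjurp and Cenpa are shown because these were the members whose heterozygous and wild type libraries did not overlap. The RefSeq windows on GRCm38.p6 run from 250 bases before the transcription start to 50 after it, and all 8 members had one. The Hjurp window is chr1:88277530-88277829 on the minus strand, and the Cenpa window is chr5:30666636-30666935 on the plus strand. Capitals mark matches, on either strand, to CCAAT or to TTTGAA, the core of the CHR element of cell cycle genes.
Hjurp: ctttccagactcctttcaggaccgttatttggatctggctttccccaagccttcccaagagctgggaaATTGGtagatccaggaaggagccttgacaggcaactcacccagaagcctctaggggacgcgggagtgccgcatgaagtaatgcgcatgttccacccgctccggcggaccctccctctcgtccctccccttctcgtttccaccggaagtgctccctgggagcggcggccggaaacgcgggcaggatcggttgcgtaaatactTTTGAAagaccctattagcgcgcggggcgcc
Cenpa: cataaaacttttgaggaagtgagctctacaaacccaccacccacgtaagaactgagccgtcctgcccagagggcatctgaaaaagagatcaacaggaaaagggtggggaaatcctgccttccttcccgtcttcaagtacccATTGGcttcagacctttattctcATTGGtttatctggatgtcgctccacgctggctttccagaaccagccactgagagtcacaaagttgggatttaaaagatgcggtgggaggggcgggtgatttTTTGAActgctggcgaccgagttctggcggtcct

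In both windows a TTTGAA began just after the RefSeq start, 19 bases after it in Hjurp and 16 bases after it in Cenpa. The gene spans given below come from another annotation and begin further upstream. Both windows held CCAAT in the reverse direction (ATTGG). Among the 8 members TTTGAA was found in 4 windows (Hjurp, Cenpa, Oip5 and Cenpn), CCAAT in 5, and TTCCCGC, a core of E2F sites, in 3 (Cenpb, Cenpc1 and Cenpn). Over all 32851 promoter windows of the same length, 17.9% held TTTGAA, 37.4% CCAAT and 4.6% TTCCCGC. Neither the Hjurp nor the Cenpa window held TTCCCGC. The palindromic core of NRF1 sites was found in 1 of the 8, that of Mis18a, and in 0.971% of all windows. These are matches of letters on either strand only.

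Hjurp (ENSMUSG00000044783.16) spans bases 88262471 to 88277633 of chromosome 1 in GRCm38, minus strand, and has 7 annotated transcripts, of which 4 are protein coding and 3 retain an intron. Hjurp stood at 62.4, 61.4 and 61.9 CPM across the heterozygous libraries, against 42.7, 39.5 and 40.2 CPM across the wild type libraries. Every heterozygous library was above every wild type library, and the groups were far apart for their spread. Means were 61.9 ± 0.476 CPM for heterozygous cortex, against 40.8 ± 1.68 CPM for wild type (SD, n = 3 per genotype). The heterozygous level was 152% of wild type, a log2 difference of 0.60 (SE 0.06), and this contrast is the one for which the gene was chosen. Counts of 5065 to 5735 stood behind the heterozygous values and 3515 to 3608 behind the wild type values. Counting error alone gives an SD of 0.837 CPM at the heterozygous level and 0.684 CPM at the wild type level, so the SD among heterozygous libraries was 0.569 of counting error and that among wild type libraries 2.45 times it. Without wild type replicate 3 the log2 difference was 0.59.

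Cenpa (ENSMUSG00000029177.9), which encodes the cargo of HJURP, spans bases 30666777 to 30674830 of chromosome 5, plus strand. Cenpa stood at 8.81, 7.42 and 6.96 CPM across the heterozygous libraries, against 5.97, 5.92 and 3.81 CPM across the wild type libraries. Again every heterozygous library was above every wild type library, but both groups were spread out, and wild type replicate 3 was the lowest of all. Means were 7.73 ± 0.961 CPM for heterozygous cortex, against 5.24 ± 1.23 CPM for wild type (SD, n = 3 per genotype), or 148% of wild type (95% interval 112% to 195%). The log2 difference was 0.56 (SE 0.18), with an unadjusted p of 0.0105 and a Benjamini-Hochberg adjusted p of 0.797 in edgeR's quasi-likelihood test, which did not pass 0.05. Without wild type replicate 3, the library with the high striatal markers, the log2 difference was 0.38, and without heterozygous replicate 1 it was 0.46. With the striatal marker level as a covariate, an alternative chosen after seeing the data, it was 0.51.

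**Figure D1:**
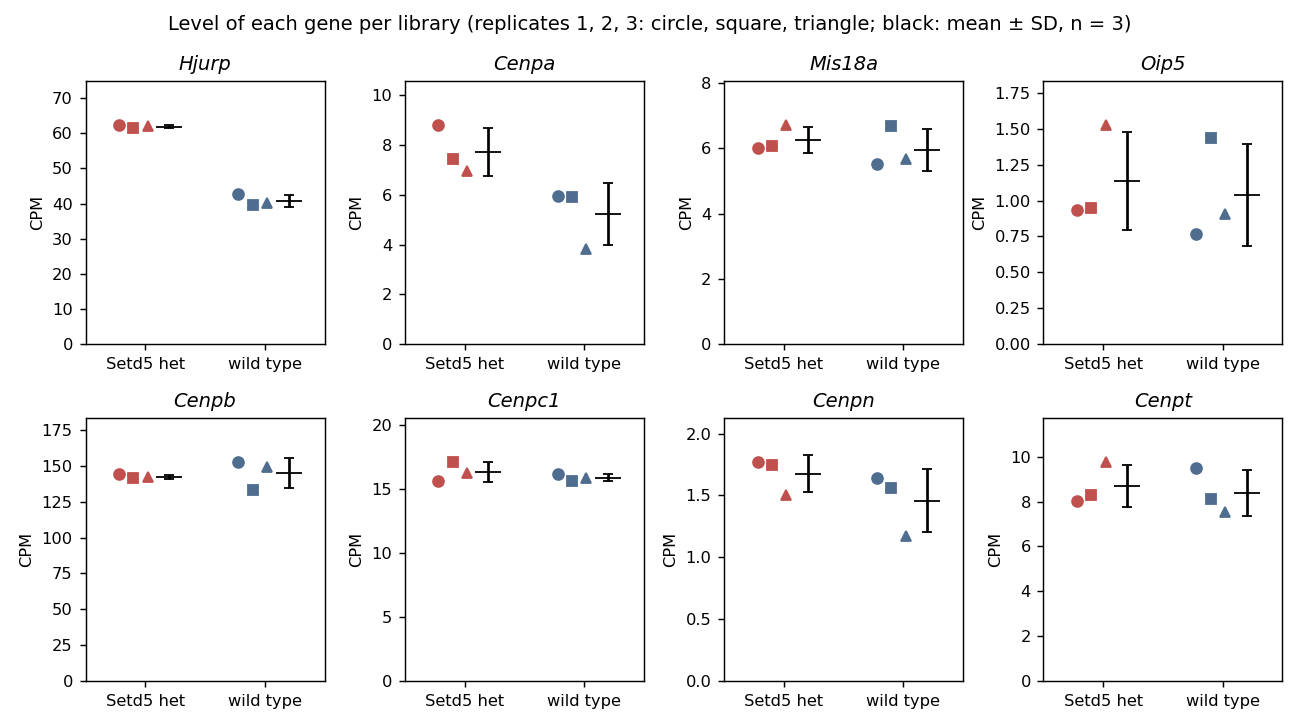
Level in CPM of each of the 8 genes in every library, heterozygous on the left and wild type on the right of each panel; circles, squares and triangles are replicates 1, 2 and 3, and black marks the mean ± SD (n = 3). Hjurp (61.4 to 62.4 CPM in heterozygous, 39.5 to 42.7 CPM in wild type) and Cenpa (6.96 to 8.81 CPM in heterozygous, 3.81 to 5.97 CPM in wild type) are the genes whose groups do not overlap.

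Of the 7 genes other than Hjurp, edgeR's quasi-likelihood test called 0 at an adjusted p under 0.05, as it did of all 27939 genes tested, or 0%. At an unadjusted p under 0.05 there was 1 of the 7, Cenpa, which was higher, beside 2.44% of all genes higher, 3.38% lower and 5.83% in either direction. Groups that did not overlap, with heterozygous higher, were found for 1 of the 7, again Cenpa, beside 5.88% of all genes, and for 0 of the 7 with heterozygous lower, beside 5.85%. None of the 7 was called by DESeq2, which called 0.222% of all genes, by the likelihood ratio test of edgeR (0.104%), by limma-voom with library quality weights (0.00716%) or by robust quasi-likelihood (0.00358%). They gave 0 calls with every gene of at least 1 count kept, beside 0.0142% of genes, and without wild type replicate 2, beside 0.00697%. The fitted level was higher in heterozygous cortex for 6 of the 7 and lower for 1, beside 49.9% of all genes higher.

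Neither Mis18 complex gene among the members passed the test. Mis18a (ENSMUSG00000022978.11, minus strand of chromosome 16 from 90719312 to 90727404) was at 6.01, 6.05 and 6.71 CPM in heterozygous replicates, against 5.50, 6.69 and 5.68 CPM in wild type replicates. Its groups overlapped, with a log2 difference of 0.07 (SE 0.12; 95% interval -0.19 to 0.33; adjusted p = 0.948 by edgeR). Oip5 (ENSMUSG00000072980.3, minus strand of chromosome 2 from 119609512 to 119618469), which encodes the Mis18 beta subunit, was at 0.935, 0.946 and 1.53 CPM in heterozygous replicates, against 0.769, 1.44 and 0.907 CPM in wild type replicates. In each genotype 1 library was well above the other two, heterozygous replicate 3 and wild type replicate 2. Oip5 rested on 65 to 139 counts a library and had the widest interval of the 8 genes, with a log2 difference of 0.13 (SE 0.30; 95% interval -0.54 to 0.80; adjusted p = 0.969 by edgeR).

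Cenpc1 and Cenpb gave the narrowest intervals of the 7 genes tested. Cenpc1 (ENSMUSG00000029253.12, minus strand of chromosome 5 from 86012024 to 86065583), which encodes CENP-C, was at 15.6, 17.1 and 16.2 CPM in heterozygous replicates, against 16.2, 15.6 and 15.9 CPM in wild type replicates. The log2 difference was 0.04 (SE 0.08; 95% interval -0.13 to 0.21; adjusted p = 0.961 by edgeR), so a difference as large as that of Hjurp lay outside its interval. The same held for Cenpb, Mis18a and Cenpt, but not for Cenpa, Oip5 and Cenpn. The value of Hjurp is the one on which it was chosen. Cenpb (ENSMUSG00000068267.5, minus strand of chromosome 2 from 131175182 to 131180067), a gene of a single exon, was at 144, 141 and 142 CPM in heterozygous replicates, against 153, 134 and 149 CPM in wild type replicates. Wild type libraries lay on both sides of the heterozygous ones. Its log2 difference was -0.03 (SE 0.07; 95% interval -0.18 to 0.12; adjusted p = 0.972 by edgeR). The SD of Cenpb was 1.08 times counting error among heterozygous libraries and 8.02 times it among wild type libraries.

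Cenpn and Cenpt, whose proteins belong to the constitutive centromere-associated network (CCAN), also overlapped between genotypes. Cenpn (ENSMUSG00000031756.5, plus strand of chromosome 8 from 116921730 to 116941507) was at 1.77, 1.75 and 1.51 CPM in heterozygous replicates, against 1.64, 1.56 and 1.17 CPM in wild type replicates. As with Cenpa, wild type replicate 3 was its lowest library, and without it the log2 difference was 0.06. Its log2 difference was 0.20 (SE 0.19; 95% interval -0.23 to 0.63; adjusted p = 0.907 by edgeR). Cenpt (ENSMUSG00000036672.5, minus strand of chromosome 8 from 105844673 to 105853278) was at 8.03, 8.32 and 9.79 CPM in heterozygous replicates, against 9.51, 8.10 and 7.54 CPM in wild type replicates. The highest library of each genotype reached about the same level, and the log2 difference was 0.06 (SE 0.12; 95% interval -0.22 to 0.33; adjusted p = 0.966 by edgeR).

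Differences were also taken within libraries of like Xist level, a split chosen after the data were seen, with 2 heterozygous against 2 wild type libraries low in Xist and 1 against 1 high in it. Hjurp differed by 0.59 in log2 among the low and 0.62 among the high libraries, and Cenpa by 0.44 and 0.87. Cenpn was higher in both (0.13 and 0.36). Mis18a (-0.01 and 0.24), Oip5 (-0.16 and 0.74) and Cenpt (-0.10 and 0.38) had a sign that turned between the low and the high libraries. Cenpb differed by -0.00 and -0.07 and Cenpc1 by 0.04 and 0.03. Each value among the high libraries rests on 1 library per genotype, and the wild type one is replicate 3, with the high striatal markers. With Xist level, high or low, as a covariate in edgeR's fit, the log2 difference was 0.60 for Hjurp and 0.59 for Cenpa. The part of Xist level in the differences was not tested further.

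**Figure D2:**
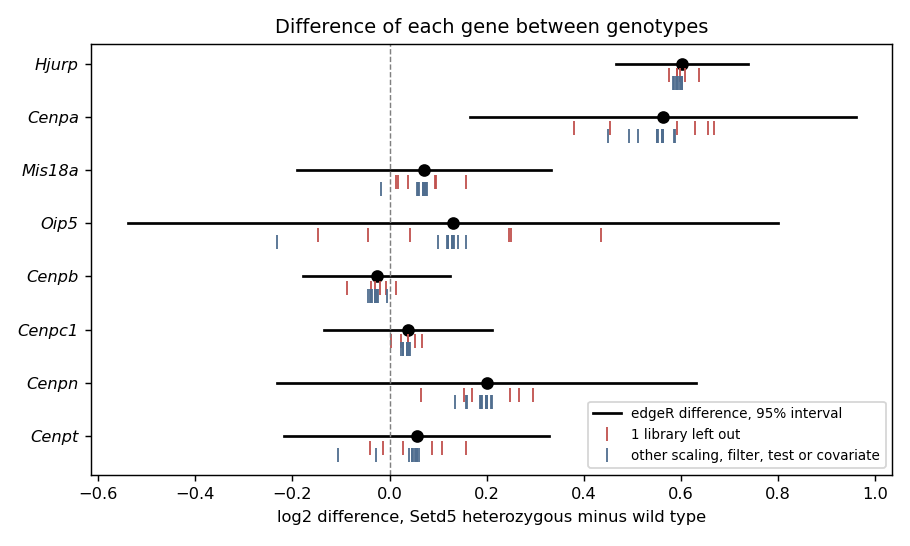
Log2 difference of each gene, heterozygous minus wild type, with the 95% interval of edgeR's fit (black) and its value with 1 library left out (red ticks) or under another scaling, filter, test or covariate (blue ticks). Ticks of Hjurp stay between 0.58 and 0.64 and those of Cenpa between 0.38 and 0.67, while those of Oip5 run from -0.23 to 0.44. Hjurp was chosen on this contrast, so its interval and ticks are a description and not a test.

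Levels were also set against the wild type mean of each gene, in log2. Heterozygous replicate 1 had the highest Cenpa, at 0.78 in log2 above the wild type mean, but its Oip5 was at -0.10 and its Cenpt at -0.06. Heterozygous replicate 3 had the highest Oip5 (0.60), Cenpt (0.23) and Mis18a (0.18) and the lowest heterozygous Cenpa (0.44). Hjurp was at 0.61, 0.59 and 0.60 across the heterozygous libraries, against 0.07, -0.05 and -0.02 across the wild type libraries.

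**Figure D3:**
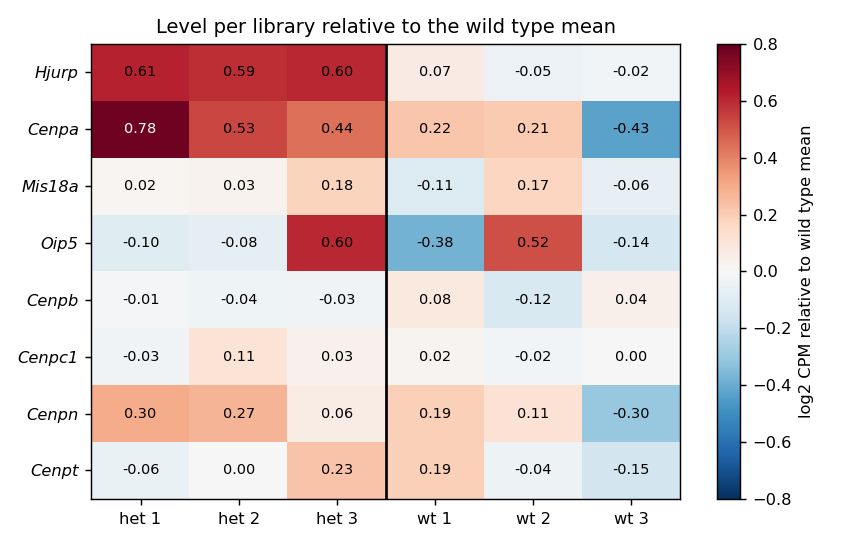
Log2 CPM of each gene in each library relative to the gene's wild type mean, with heterozygous libraries left of the line and wild type libraries right of it. The Hjurp row is even within each genotype (0.59 to 0.61 in heterozygous, -0.05 to 0.07 in wild type), and the Cenpa row is uneven (0.44 to 0.78 in heterozygous, -0.43 to 0.22 in wild type).

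Levels between genes were compared per length, as RPKM (CPM per kilobase of the gene's joined exons), averaged over the 6 libraries. The order was Cenpb at 29.5, Hjurp at 6.16, Cenpc1 at 2.86, Cenpt at 2.35, Mis18a at 2.13, Cenpa at 1.11, Oip5 at 0.611 and Cenpn at 0.475 RPKM. Ranges over the libraries overlapped between Cenpt and Mis18a, between Cenpa and Oip5 and between Oip5 and Cenpn, and the other neighbours in the order did not overlap. Hjurp stood above 69.9% of the genes tested and Cenpa above 37.6%. Among the protein coding genes tested, these shares were 61.4% and 26.5%. Per length, Hjurp was 4.98, 5.82 and 6.25 times Cenpa across the heterozygous libraries, against 5.03, 4.69 and 7.42 times across the wild type libraries, so this ratio overlapped between genotypes. Joined exons of Hjurp come to 8331 bases and its longest transcript to 4878, and with the longest transcript as the length its mean level was 10.5 RPKM and its place the same. Both kinds of length can include retained introns. The longest transcript of Cenpa, at 3806 bases, retains an intron, and its longest protein coding transcript has 1466 bases. The place of Cenpa and its ratio to Hjurp therefore depend on the length used, and protein coding lengths were not tried.

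**Figure D4:**
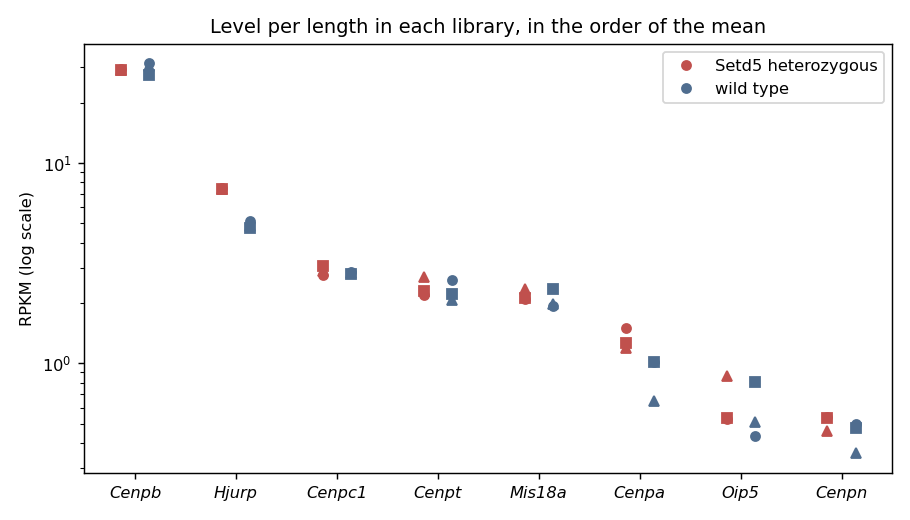
Level per length (RPKM, log axis) of each gene in each library, with heterozygous libraries left of wild type ones and the genes in the order of their mean. Cenpb (29.5 RPKM) and Hjurp (6.16 RPKM) stand above the other genes, which average 0.475 to 2.86 RPKM.

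Markers of dividing cells were measured beside these genes, since the centromere genes are best known there. Of 16 markers none was at 0 in any library. They summed to 50.8 to 70.0 CPM in the heterozygous libraries and 52.1 to 66.3 CPM in the wild type ones, which overlapped. Mki67, a proliferation marker named after its values were seen, was at 2.54, 5.23 and 8.17 CPM across the heterozygous libraries, against 5.76, 6.20 and 3.56 CPM across the wild type libraries. Its lowest level was in heterozygous replicate 1, where Cenpa was highest. The summed markers were also lowest in that library, at 50.8 CPM. Ccnb2, picked after its values were seen, went the other way and was highest there at 1.12 CPM. The part of dividing cells in the level of Cenpa was not tested. Fitted levels of the cycling markers were higher for 8 and lower for 8 of the 16, with a median log2 difference of 0.01.

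Summed markers of 4 cell types did not overlap between genotypes, as the levels of Hjurp and Cenpa did not. Of 14 marker lists, 4 had a lower sum in each heterozygous library than in all wild type libraries, and 0 had a higher one. Astrocyte markers summed to 1150 to 1290 CPM in heterozygous and 1330 to 1340 CPM in wild type cortex. Endothelial markers summed to 124 to 128 CPM in heterozygous and 133 to 141 CPM in wild type cortex. Pericyte and smooth muscle markers summed to 241 to 247 CPM in heterozygous and 251 to 310 CPM in wild type cortex, and blood cell markers to 24.6 to 28.5 CPM in heterozygous and 28.8 to 35.4 CPM in wild type cortex. Single markers within these lists did not all separate. With heterozygous lower, groups did not overlap for 2 of 6 astrocyte and 4 of 6 endothelial markers. The same held for 4 of 6 pericyte and smooth muscle and 1 of 6 blood cell markers, and for 5.85% of all genes tested. Sums of other lists overlapped although their genes lay on 1 side. Fitted higher were 6 of 6 oligodendrocyte markers (median log2 difference 0.29), beside 49.9% of all genes tested. Fitted lower were 6 of 6 microglia (-0.175), meningeal fibroblast (-0.73) and striatal neuron markers (-0.75). Of the 96 markers 0 were called by edgeR and 0 were at 0 in any library. The part of cell composition in the levels of Hjurp and Cenpa was not tested, and in whole tissue a change in the number of cells of a type and a change in RNA per cell cannot be told apart.

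Other genes of the centromere pathway gave no call. Genes picked from these lists because their groups did not overlap are to be read beside the 5.88% of all genes that did so with heterozygous higher, the 5.85% with heterozygous lower and the 11.7% in either direction. Among 12 further CCAN subunits 0 passed edgeR's test, 7 had a higher and 5 a lower fitted level, and the median log2 difference was 0.10, against -0.000534 over all genes. Without heterozygous replicate 3 this median was 0.03, without wild type replicate 3 it was 0.06 and without wild type replicate 1 it was 0.16. The most abundant were Cenpo, Cenpx, Cenpq and Cenpu. Cenpq was at 6.36, 6.32 and 6.31 CPM in heterozygous replicates, against 5.18, 5.59 and 4.4 CPM in wild type replicates, which did not overlap, and its log2 difference was 0.32 (SE 0.12; unadjusted p = 0.0217 and adjusted p = 0.828 by edgeR). Cenpo, with a log2 difference of -0.07 (SE 0.08), Cenpx, with 0.19 (SE 0.14), and Cenpu, with -0.07 (SE 0.16), overlapped between genotypes. Cenph, named after its values were seen, was the other of 2 among the 12 with groups that did not overlap, at 0.674 to 0.769 CPM in heterozygous against 0.52 to 0.601 CPM in wild type cortex.

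Of 10 other factors with a part in CENP-A loading or in remodelling at centromeres, 0 passed, with 5 higher and 5 lower and a median of 0.01. The nucleosome remodelling subunit Rsf1 differed by 0.03 (SE 0.06), the COP9 signalosome subunit Cops8 by -0.04 (SE 0.06), the histone-binding protein Rbbp4 by 0.06 (SE 0.06) and the ubiquitin ligase scaffold Cul4a by -0.01 (SE 0.07) in log2. Smarca5, the motor subunit that pairs with Rsf1, was 1 of the 10 with groups that did not overlap (31.0 to 31.4 CPM in heterozygous, 28.0 to 30.8 CPM in wild type) and was named after its values were seen.

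Among 15 outer kinetochore genes 0 passed, 5 had a higher and 10 a lower fitted level, and the median log2 difference was -0.10. It was -0.23 without heterozygous replicate 3, -0.03 without either heterozygous replicate 1 or wild type replicate 2. Zwint, abundant in neurons, was at 587, 590 and 556 CPM in heterozygous replicates, against 529, 578 and 500 CPM in wild type replicates, with a log2 difference of 0.11 (SE 0.07). Mis12 differed by 0.02 (SE 0.09), Ska2 by 0.04 (SE 0.10) and Dsn1 by -0.05 (SE 0.13). Ska3 (1.31 to 1.58 CPM in heterozygous, 1.96 to 2.08 CPM in wild type) and Spc25 (0.87 to 1.33 CPM in heterozygous, 1.34 to 1.62 CPM in wild type) were the 2 of 15 with groups that did not overlap, and both were named after their values were seen. Among 12 inner centromere and checkpoint genes 0 passed, with 4 higher and 8 lower and a median of -0.04. The sign of this median turned without heterozygous replicate 1 (0.09) or wild type replicate 1 (0.01), and it was -0.08 without heterozygous replicate 3 or wild type replicate 3, -0.02 when heterozygous replicate 2 was left out and -0.00 when wild type replicate 2 was. The checkpoint protein Bub3 differed by -0.02 (SE 0.07), the passenger complex subunit Incenp by -0.04 (SE 0.12), and the checkpoint proteins Mad2l1 by -0.03 (SE 0.11) and Mad1l1 by -0.06 (SE 0.13). The kinase gene Ttk, also named after its values were seen, had the largest difference of the list, 0.94 (SE 0.36), at 0.761, 0.813 and 1.41 CPM in heterozygous against 0.414, 0.775 and 0.363 CPM in wild type replicates, and its groups overlapped.

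Chaperones of other histone H3 and H4 forms gave 0 calls among 14 genes, with 10 higher, 4 lower and a median of 0.04. Atrx, which with Daxx places histone H3.3 in heterochromatin, was at 366, 360 and 355 CPM in heterozygous replicates, against 357, 345 and 325 CPM in wild type replicates, a log2 difference of 0.07 (SE 0.06). Ubn2, of the HIRA complex, differed by 0.03 (SE 0.08), and the FACT subunits Supt16 and Ssrp1 each by 0.02 (SE 0.06 and 0.07). Dnajc9, named after its values were seen, was 1 of 14 with groups that did not overlap, at 14.8 to 16.4 CPM in heterozygous and 13.4 to 14.4 CPM in wild type cortex. Among 16 cell cycle transcription factors of the DREAM and FoxM1 group 0 passed, with 8 higher, 8 lower and a median of -0.01. Rbl2 differed by 0.02 (SE 0.07), Rb1 by -0.05 (SE 0.07), E2f3 by -0.03 (SE 0.08) and Tfdp1 by 0.03 (SE 0.07).

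**Figure D5:**
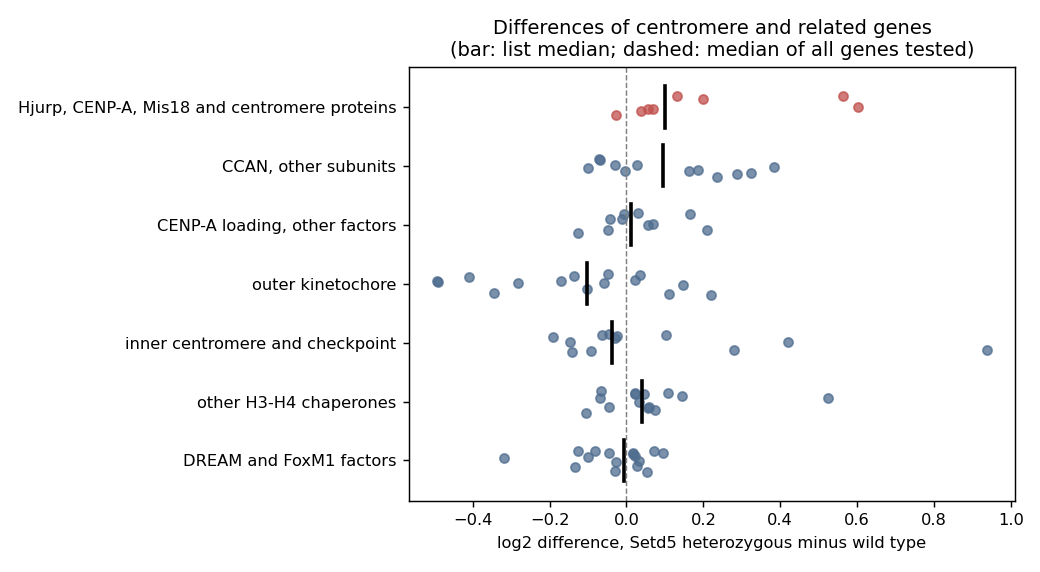
Log2 difference, heterozygous minus wild type, of each gene of the 8 (red) and of 6 lists of related genes (blue), with list medians as bars. Hjurp (0.60) and Cenpa (0.56) lie apart from the other 6 of their row. Medians of the 6 lists run from -0.10 for the outer kinetochore to 0.10 for the other CCAN subunits. The median of the 8 genes, 0.10, includes Hjurp, which was chosen on this contrast.

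The surroundings of the genes were examined because the library kit does not mark strand. The annotation places 18 genes within 10 kb of a member or over it, 15 of them tested, of which 0 were called by edgeR, 1 had an unadjusted p under 0.05 (5.83% of all genes did) and 3 had groups that did not overlap (11.7% of all genes did). Hjurp stands head to head with Trpm8, a cold-sensing channel gene whose annotated start is 28 bases from that of Hjurp and inside the promoter window shown above. Trpm8, below the level at which neighbours were to be named, was at 0.272, 0.133 and 0.0769 CPM in heterozygous replicates, against 0.0473, 0.101 and 0.0907 CPM in wild type replicates, which overlapped. On the other side Mroh2a ends 182 bases from Hjurp, at 2.48, 2.04 and 2.34 CPM in heterozygous against 2.33, 2.44 and 2.23 CPM in wild type replicates. Neither shares an exonic base with Hjurp. Within 500 kb of Hjurp 23 genes were tested, of which 0 were called and 0 had an unadjusted p under 0.05, with a median log2 difference of 0.01. They include genes of the Ugt1a cluster that share exons and counts (below), so the 23 are not separate measures.

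Oip5 is the member whose reads are hardest to separate, since 172 of its exonic bases, or 9.67%, lie over Nusap1 on the other strand. Near Hjurp, 5 genes of the Ugt1a cluster that share exons (Ugt1a1, Ugt1a2, Ugt1a8, Ugt1a9 and Ugt1a10) had the same count as each other in each library, from 138 to 213, as counting a read for every gene it overlaps would give. Whether reads in the shared part of Oip5 and Nusap1 were counted for both was not tested. Nusap1, a spindle protein gene, was at 4.87, 5.19 and 4.94 CPM in heterozygous replicates, against 4.37, 3.81 and 3.90 CPM in wild type replicates. Its groups did not overlap, unlike those of Oip5, and its log2 difference was 0.31 (SE 0.11; unadjusted p = 0.0218 and adjusted p = 0.828 by edgeR). Of the other neighbours at 1 CPM or more, Thap11 beside Cenpt differed by 0.12 (SE 0.07) with groups that did not overlap. Slc35f6 beside Cenpa differed by 0.06 (SE 0.08), Cdc25b beside Cenpb by 0.12 (SE 0.15), 1700020I14Rik beside Oip5 by -0.08 (SE 0.08), and Spef1, whose span covers Cenpb with 20 shared exonic bases, by -0.03 (SE 0.12). Stap1 (-0.04), Cmc2 (0.04), Atmin (-0.01), Nutf2 (0.01) and Gm14232 (-0.01) were within 0.05 of wild type in log2. Tsnaxip1, which shares 8 exonic bases with Cenpt, was the third neighbour with groups that did not overlap, at 0.679 to 0.857 CPM in heterozygous and 0.374 to 0.64 CPM in wild type cortex.

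Stretches of near-identical sequence touch Hjurp and Cenpa. At 95% identity over at least 100 bases, 14 other genes matched a Hjurp transcript and 93 matched a Cenpa transcript, with longest stretches of 156 and 154 bases. All of these lay in transcripts not annotated as protein coding, and 0 lay in a protein coding one. Cenpc1 matched 4 other genes, over at most 319 bases, and 1 of these matches lay in its protein coding transcript. Oip5 matched 1, Nusap1, over 172 bases, also in a protein coding transcript. Mis18a, Cenpb, Cenpn and Cenpt matched 0. The sources used here do not say how reads matching several places were treated. The share of the counts that such stretches could hold is therefore uncertain for Cenpa, and also for Hjurp, Cenpc1 and Oip5.

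Genes whose pattern over the 6 libraries was most like that of Hjurp were ranked by the root mean square difference of their log2 CPM, each centred on its own mean, among 14125 genes with a mean of at least 1 CPM. The nearest was Glp2r, a gut hormone receptor gene, at 0.0586, followed by Fam205c at 0.0602, the taste channel gene Trpm5 at 0.0651, Armcx3 at 0.102 and Mir7646 at 0.112. Glp2r was at 14.6, 13.3 and 12.9 CPM in heterozygous replicates, against 9.13, 9.11 and 9.10 CPM in wild type replicates. Fam205c was at 8.87, 9.27 and 9.19 CPM in heterozygous replicates, against 6.88, 5.96 and 6.36 CPM in wild type replicates. Trpm5 was at 1.33, 1.41 and 1.51 CPM in heterozygous against 0.923, 0.921 and 0.93 CPM in wild type replicates. Mir7646 lies inside the spans of Armcx5 and Gprasp1, so its gene count need not come from a microRNA precursor. This ranking used the same contrast for which Hjurp was chosen. The other members stood further down, Cenpa at place 452, Cenpn at 1247, Cenpc1 at 3620, Mis18a at 4255, Cenpt at 4477, Cenpb at 6565 and Oip5 at 12636.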

How the data were processed

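The authors deposited unnormalized whole-number counts per gene, 1 table for each of the 6 libraries. Per the labels' protocols libraries were made with a TruSeq kit that selects polyadenylated RNA and keeps no strand. The submitters' processing notes name FastQC, featureCounts, DESeq2 and Bowtie2 2.3.4.3, and the builds mm10 and GRCm38.p6. The sources used here give no roles, strand setting or handling of reads with several matches. Since Bowtie2 alone does not split reads over introns, levels between genes may be more affected than differences between genotypes. All 55450 identifiers matched GENCODE M21 of GRCm38, the source of symbols, positions and exon lengths. Promoter sequences are from RefSeq (GRCm38.p6).

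Genes kept by filterByExpr of edgeR 4.0.16 (minimum count 10, total 15; R 4.3.3), 27939 in all, were scaled with TMM and fitted by genotype with glmQLFit and glmQLFTest, without covariates. P-values were adjusted over all genes by Benjamini-Hochberg with a threshold of 0.05. DESeq2 1.42.0 and limma 3.58.1 were alternatives. The fit was checked on simulated counts. Near-identical sequence was sought with blastn 2.17.0. No pair of the 6 libraries agreed within sampling noise (chi-square per gene at least 10.9).

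The genes and lists were chosen with earlier results of these data known. Named genes are the 8 members, Setd5, the 4 most abundant genes of each list and any called, neighbours within 10 kb at 1 CPM or more, and the 5 genes most like Hjurp (predicted models left out). Replicate numbers follow record order and were used for no pairing. An exact permutation test of 3 against 3 cannot go below p = 0.1 and was not used.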

Additional observations from a re-analysis of the deposited data

How the results depend on the processing

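Over 19 alternatives the log2 difference of Hjurp stayed between 0.58 and 0.64 and that of Cenpa between 0.38 and 0.67, with adjusted p for Cenpa from 0.21 to 1 in those fits. Genes called numbered 6 with every gene of at least 1 count kept, 62 in DESeq2 and 2 in limma-voom with quality weights. They numbered 29 in the likelihood ratio test, 1 in robust quasi-likelihood and 1 at an adjusted p under 0.1. In each of these 0 of the 7 members other than Hjurp were called. Hjurp was chosen on this contrast, so it is not counted among the members here. Leaving out 1 library gave 0 to 2 called genes, the 2 without wild type replicate 2, and 0 of the 7 members. Setd5, at -0.56 and not called by edgeR's quasi-likelihood test, was called with every gene of at least 1 count kept (-0.57), in DESeq2 (-0.57), in limma-voom with quality weights (-0.59) and in the likelihood ratio test (-0.56). Signs of uncalled members turned in some fits: without 1 library, Oip5 ran from -0.147 to 0.435, Cenpb from -0.088 to 0.0132 and Cenpt from -0.0408 to 0.157. Without the Xist-high libraries Mis18a was at -0.017, Oip5 at -0.232 and Cenpt at -0.107, and Cenpt was at -0.0283 in limma-voom with quality weights. The cause was not tested. Medians of the lists also moved when 1 library was left out, from 0.03 to 0.16 for the other CCAN subunits, -0.23 to -0.03 for the outer kinetochore, -0.08 to 0.09 for the inner centromere and checkpoint, -0.00 to 0.06 for the other loading factors, 0.00 to 0.07 for other chaperones and -0.04 to 0.01 for DREAM and FoxM1 factors. The filter of 1 CPM in 3 libraries removed Oip5. Longest transcripts in place of joined exons exchanged 2 places in the order of levels, those of Oip5 and Cenpn. Lengths of protein coding transcripts alone were not tried. No paired analysis was possible because the labels give no replicate numbers shared by the genotypes. Leaving out the Xist-high libraries and the striatal covariate were chosen after seeing the data. At 65 to 139 counts a library, the SD of Oip5 was 2.99 times counting error among heterozygous libraries and 3.24 times it among wild type libraries.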
